A study of Homo sapiens with 18 samples.

Results

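The 5 genes described here, *PLAU*, *PLAUR*, *MMP14*, *MMP1* and *MMP10*, are members of the urokinase system and of the matrix metalloproteinases, out of 20802 genes listed in the count files. Their rows were found by gene symbol, and the genes were chosen by how their levels moved with the siRNAs in earlier results of these data, so their changes against the nontargeting siRNAs are described without a test. RKO cells, an established human colorectal carcinoma line, were transfected with 30 nM of 1 siRNA and harvested after 72 h. The 6 groups received the nontargeting siCtrl#1 or siCtrl#2, siTsg101#1 or siTsg101#2 against *TSG101*, or siVps28#1 or siVps28#2 against *VPS28*, each with 3 libraries, 1 in each of 3 batches named in the labels. Tsg101 and Vps28 are subunits of ESCRT-I, a complex that sorts ubiquitinated membrane proteins into the endolysosomal pathway, and each was depleted with a pair of independent siRNAs in the same parental line, without a rescue.

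Urokinase, encoded by *PLAU*, is a secreted serine protease that cleaves plasminogen to plasmin, and its receptor uPAR, encoded by *PLAUR*, holds it at the cell surface. Matrix metalloproteinases are zinc-dependent enzymes made as inactive precursors that plasmin and other proteases can activate, and together these enzymes remodel the extracellular matrix. *MMP1* encodes interstitial collagenase, *MMP10* stromelysin-2, and *MMP14* the membrane-anchored MT1-MMP, which activates pro-MMP2. In carcinomas the system is best known for its part in invasion and wound-like remodeling.

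Library totals on genes ran from 2561790 to 7466916 reads, and levels are given as CPM, the count scaled to the library total and corrected by TMM normalization. Each transcript was read through a short amplicon, so that CPM were compared between libraries of 1 gene and not between genes. The knockdown is visible in the targeted transcripts: *TSG101* measured 118 ± 40.1 CPM with siCtrl#1 (SD, n = 3), 3.90 ± 0.761 with siTsg101#1 and 3.43 ± 1.36 with siTsg101#2 (SD, n = 3 each). *VPS28* measured 103 ± 13.3 CPM with siCtrl#1, 5.68 ± 2.15 with siVps28#1 and 6.11 ± 1.17 with siVps28#2 (SD, n = 3 each). Among 9 markers of colorectal epithelial carcinoma, *KRT18* ranged from 45.3 to 86.1 CPM, *CDX2* from 20.4 to 40.7 and *EPCAM* from 4.62 to 16.2, whereas *CDH1* had no count in any library and *KRT19*, *VIL1*, *KRT20* and *LGALS4* had at most 6 counts in all. Summed fibroblast markers reached at most 1.67 CPM and endothelial markers at most 0.525 CPM in any library. Of the 8 leukocyte markers, 6 had no count, among them *PTPRC*, and the summed level of 514 to 1670 CPM was carried by *CD68*, which encodes a lysosomal membrane protein made by many cells.

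In the GRCh37 annotation *PLAU* (ENSG00000122861) lies on chr10:75668935-75677254 on the plus strand, and 915 of its exonic bases overlap *C10orf55* on the other strand. *PLAUR* (ENSG00000011422) lies on chr19:44150247-44174699 on the minus strand and *MMP14* (ENSG00000157227) on chr14:23305769-23318250 on the plus strand, neither with an exonic overlap. *MMP10* (ENSG00000166670, chr11:102641233-102651359) and *MMP1* (ENSG00000196611, chr11:102660132-102668891) are neighbors on the minus strand, 8772 bases apart, and *MMP1* shares 223 exonic bases with the antisense *WTAPP1*. The strand setting of the read counting was not given in the sources used here, so reads of *PLAU* and *C10orf55*, or of *MMP1* and *WTAPP1*, cannot be told apart where they overlap.

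The promoter windows of the members are shown because *MMP10* had the largest change of the 5 genes and *PLAU*, *PLAUR* and *MMP14* each followed another pattern. They are taken from RefSeq on GRCh38.p14 and run from 250 bases before to 50 bases after the transcription start, 5′ to 3′ on the strand of the gene. Of the 5 members 4 were matched, and for *PLAU* the downstream one of its windows is printed. Capitals mark TGANTCA, the core of AP-1 sites widened to any middle base, GGGCGG, the core of Sp1 sites, and TATAAA, the TATA box. The first pair was searched on both strands and TATAAA on the strand of the gene, and all 3 motifs were picked after the windows had been read.

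MMP10 (chr11:102780579-102780878, minus): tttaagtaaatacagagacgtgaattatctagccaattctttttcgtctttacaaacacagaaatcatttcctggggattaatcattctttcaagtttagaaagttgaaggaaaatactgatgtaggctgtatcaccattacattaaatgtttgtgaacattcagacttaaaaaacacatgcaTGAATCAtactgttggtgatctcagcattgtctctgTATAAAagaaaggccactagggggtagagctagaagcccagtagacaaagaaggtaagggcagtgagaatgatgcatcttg
PLAUR (chr19:43670120-43670419, minus): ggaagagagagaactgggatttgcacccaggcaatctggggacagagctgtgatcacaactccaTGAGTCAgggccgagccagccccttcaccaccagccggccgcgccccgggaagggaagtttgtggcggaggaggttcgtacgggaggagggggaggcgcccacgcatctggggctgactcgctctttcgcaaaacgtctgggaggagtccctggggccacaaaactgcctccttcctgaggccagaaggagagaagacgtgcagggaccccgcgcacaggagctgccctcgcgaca
PLAU (chr10:73910882-73911181, plus): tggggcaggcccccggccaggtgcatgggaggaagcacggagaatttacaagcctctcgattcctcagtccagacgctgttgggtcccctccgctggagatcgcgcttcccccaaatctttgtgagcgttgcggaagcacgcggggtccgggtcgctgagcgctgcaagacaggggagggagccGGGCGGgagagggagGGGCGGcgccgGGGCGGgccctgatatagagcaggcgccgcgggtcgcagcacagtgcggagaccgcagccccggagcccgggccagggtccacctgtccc
MMP14 (chr14:22836335-22836634, plus): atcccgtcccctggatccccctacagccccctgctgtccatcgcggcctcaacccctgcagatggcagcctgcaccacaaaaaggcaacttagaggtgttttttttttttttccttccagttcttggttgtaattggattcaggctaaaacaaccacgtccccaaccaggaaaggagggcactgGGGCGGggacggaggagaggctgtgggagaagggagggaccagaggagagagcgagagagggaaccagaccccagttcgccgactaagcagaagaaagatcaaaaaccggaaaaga

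The *MMP10* window held TGAATCA starting at base -67 and TATAAA at base -31, and the *PLAUR* window held TGAGTCA at base -186. Among all 35116 promoter windows 7.71% held TGANTCA and 7.33% held TATAAA. The Sp1 core GGGCGG was present 3 times in the printed *PLAU* window, at bases -66, -51 and -40, and once in that of *MMP14*, at base -66, and 45.0% of all windows held it. The upstream *PLAU* window (chr10:73910360-73910659) held none of the 3 motifs. These are matches of letters in a window and were not tested as binding sites.

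*PLAU*, the protease at the head of the system, was high with 1 siRNA to each ESCRT-I subunit and low with the other. With siCtrl#1 it measured 15.2, 11.4 and 17.8 CPM in batches 1, 2 and 3 (67, 37 and 104 counts), and with siCtrl#2 it measured 26.0, 32.2 and 28.5 CPM. With siTsg101#1 the levels were 60.6, 37.8 and 42.8 CPM, whereas with siTsg101#2 they were 22.5, 19.6 and 14.3. With siVps28#1 they were 24.1, 25.4 and 14.9 CPM, and with siVps28#2 58.5, 49.4 and 68.5.

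The groups of *PLAU* thus formed a low set of siCtrl#1, siTsg101#2 and siVps28#1, which overlapped as neighbors, then siCtrl#2 alone, then siTsg101#1 and siVps28#2, which overlapped. Against siCtrl#1 the log2 changes were 1.63 with siTsg101#1, 0.33 with siTsg101#2, 0.51 with siVps28#1 (SE 0.24 each) and 1.97 with siVps28#2 (SE 0.23). The nontargeting siCtrl#2 was itself 0.95 above siCtrl#1 (SE 0.24). Against siCtrl#2 the change kept its sign with siTsg101#1, at 0.69 (SE 0.22), and with siVps28#2, at 1.02 (SE 0.22), and was negative with siTsg101#2, at -0.62, and with siVps28#1, at -0.43 (SE 0.23 each). The mean over the 4 on-target siRNAs was 1.11 (SE 0.20) against siCtrl#1 and 0.16 (SE 0.18) against siCtrl#2. Within batches *PLAU* was higher in 10 of 12 on-target libraries than with siCtrl#1 and in 6 of 12 than with siCtrl#2, and those 6 were the libraries of siTsg101#1 and siVps28#2.

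*PLAUR*, which encodes the urokinase receptor, was well measured, with 1722 to 4309 counts per library, and each group overlapped the next one in the order of means. It measured 532, 721 and 628 CPM with siCtrl#1 and 1090, 562 and 622 with siCtrl#2, where the library of batch 1 was the highest of all 18. With siTsg101#1 it measured 705, 476 and 480 CPM and with siTsg101#2 569, 451 and 505. With siVps28#1 it measured 576, 686 and 674 CPM and with siVps28#2 618, 496 and 596.

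Ordered by mean, *PLAUR* ran from 508 ± 59.1 CPM with siTsg101#2 to 757 ± 288 with siCtrl#2 (SD, n = 3 each). Groups farther apart in that order need not overlap, as siTsg101#2, at 451 to 569 CPM, lay below siVps28#1, at 576 to 686 CPM. The log2 changes against siCtrl#1 lay between -0.30 and 0.04 for the 4 on-target siRNAs (SE 0.21 each), with a mean of -0.14 (SE 0.16). Against siCtrl#2 the mean was -0.42 (SE 0.16).

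*MMP14*, the membrane-anchored activator of pro-MMP2, was lowest with siTsg101#2 and highest with siVps28#2. It measured 86.1, 113 and 85.1 CPM with siCtrl#1 and 116, 143 and 141 with siCtrl#2. With siTsg101#1 it measured 52.8, 96.0 and 93.5 CPM and with siTsg101#2 49.6, 56.2 and 52.0. With siVps28#1 it measured 56.3, 98.7 and 85.4 CPM and with siVps28#2 84.1, 191 and 182.

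The level of *MMP14* in batch 1 was the lowest of the 3 batches in 5 of 6 groups, and neighbors in the order of means overlapped apart from 2 gaps. The siTsg101#2 libraries, at 49.6 to 56.2 CPM, lay just below those of siVps28#1, at 56.3 to 98.7. The nontargeting groups did not overlap each other, and siCtrl#2 was 0.50 above siCtrl#1 on the log2 scale (SE 0.25). Against siCtrl#1 the log2 change was -0.21 with siTsg101#1 (SE 0.25), -0.85 with siTsg101#2 (SE 0.26), -0.24 with siVps28#1 (SE 0.25) and 0.69 with siVps28#2 (SE 0.25). Their mean was -0.15 (SE 0.20), and against siCtrl#2 it was -0.65 (SE 0.19). In the same batch *MMP14* was higher than with siCtrl#1 in 4 of 12 on-target libraries and higher than with siCtrl#2 in 2 of 12.

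*MMP1*, the interstitial collagenase that cleaves fibrillar collagen, was higher with all 4 on-target siRNAs against either nontargeting siRNA. With siCtrl#1 it measured 4.76, 2.46 and 5.47 CPM in batches 1, 2 and 3 (21, 8 and 32 counts), and with siCtrl#2 5.56, 2.23 and 5.78 (22, 9 and 30 counts). With siTsg101#1 it measured 13.1, 4.98 and 15.5 CPM (32, 19 and 111 counts) and with siTsg101#2 22.5, 7.01 and 18.4 (144, 45 and 111 counts). With siVps28#1 it measured 17.4, 8.40 and 19.7 CPM (60, 35 and 86 counts) and with siVps28#2 32.2, 13.7 and 18.4 (198, 83 and 106 counts).

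Batch 2 gave the lowest *MMP1* level in 6 of 6 groups, which makes the siTsg101#1 libraries, at 4.98 to 15.5 CPM, overlap with those of siCtrl#1 and siCtrl#2. Within a batch the on-target libraries were higher than siCtrl#1 in 12 of 12 and higher than siCtrl#2 in 12 of 12. The mean of the on-target libraries was 4.47, 3.47 and 3.29 times the siCtrl#1 level in batches 1, 2 and 3, and 3.83, 3.83 and 3.11 times the siCtrl#2 level. Fitted log2 changes against siCtrl#1 were 1.37 (SE 0.49), 1.85 (SE 0.47), 1.78 (SE 0.48) and 2.28 (SE 0.46) for siTsg101#1, siTsg101#2, siVps28#1 and siVps28#2. The mean was 1.82 (SE 0.41) against siCtrl#1 and 1.76 (SE 0.41) against siCtrl#2, and the nontargeting siRNAs differed from each other by 0.06 (SE 0.55).

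*MMP10*, stromelysin-2, which cleaves proteoglycans and can activate other pro-metalloproteinases, had almost no reads in the nontargeting libraries and a low but countable level in the on-target ones. It had 0, 0 and 2 counts with siCtrl#1 and 0, 2 and 2 counts with siCtrl#2, all at or below 0.495 CPM, and a count of 0 allows up to 3 counts, or 0.68 and 0.922 CPM in batches 1 and 2 of siCtrl#1 and 0.758 CPM in batch 1 of siCtrl#2. With siTsg101#1 it had 22, 13 and 65 counts (9.0, 3.41 and 9.07 CPM) and with siTsg101#2 54, 22 and 18 (8.42, 3.42 and 2.99 CPM). With siVps28#1 it had 13, 21 and 26 counts (3.77, 5.04 and 5.95 CPM) and with siVps28#2 46, 24 and 51 (7.47, 3.96 and 8.85 CPM).

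No on-target library of *MMP10* overlapped any nontargeting one, and the 4 on-target groups overlapped each other. Summed over libraries and scaled by depth, the 375 counts of the on-target groups were 40.7 times the 2 counts of siCtrl#1, with an exact 95% interval of 11.2 to 338. Against the 4 counts of siCtrl#2 the ratio was 19.9 (7.70 to 73.3). By siRNA the ratio to siCtrl#1 was 50.4 (13.6 to 422) for siTsg101#1, 33.7 (9.07 to 282) for siTsg101#2, 33.9 (8.97 to 286) for siVps28#1 and 45.5 (12.3 to 380) for siVps28#2. These intervals pool the counts over libraries, so they cover counting error only and not the spread between libraries. They also do not allow for the choice of the gene by how its level moved, and are no test of the change. The amplified reads also carry no molecular identifiers, so copies of 1 molecule count as separate reads. The fitted log2 changes of 4.86 to 5.39 against siCtrl#1, with SE of 0.77 to 0.83, depend on how a count near 0 is treated and are no bound.

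**Figure D1:**
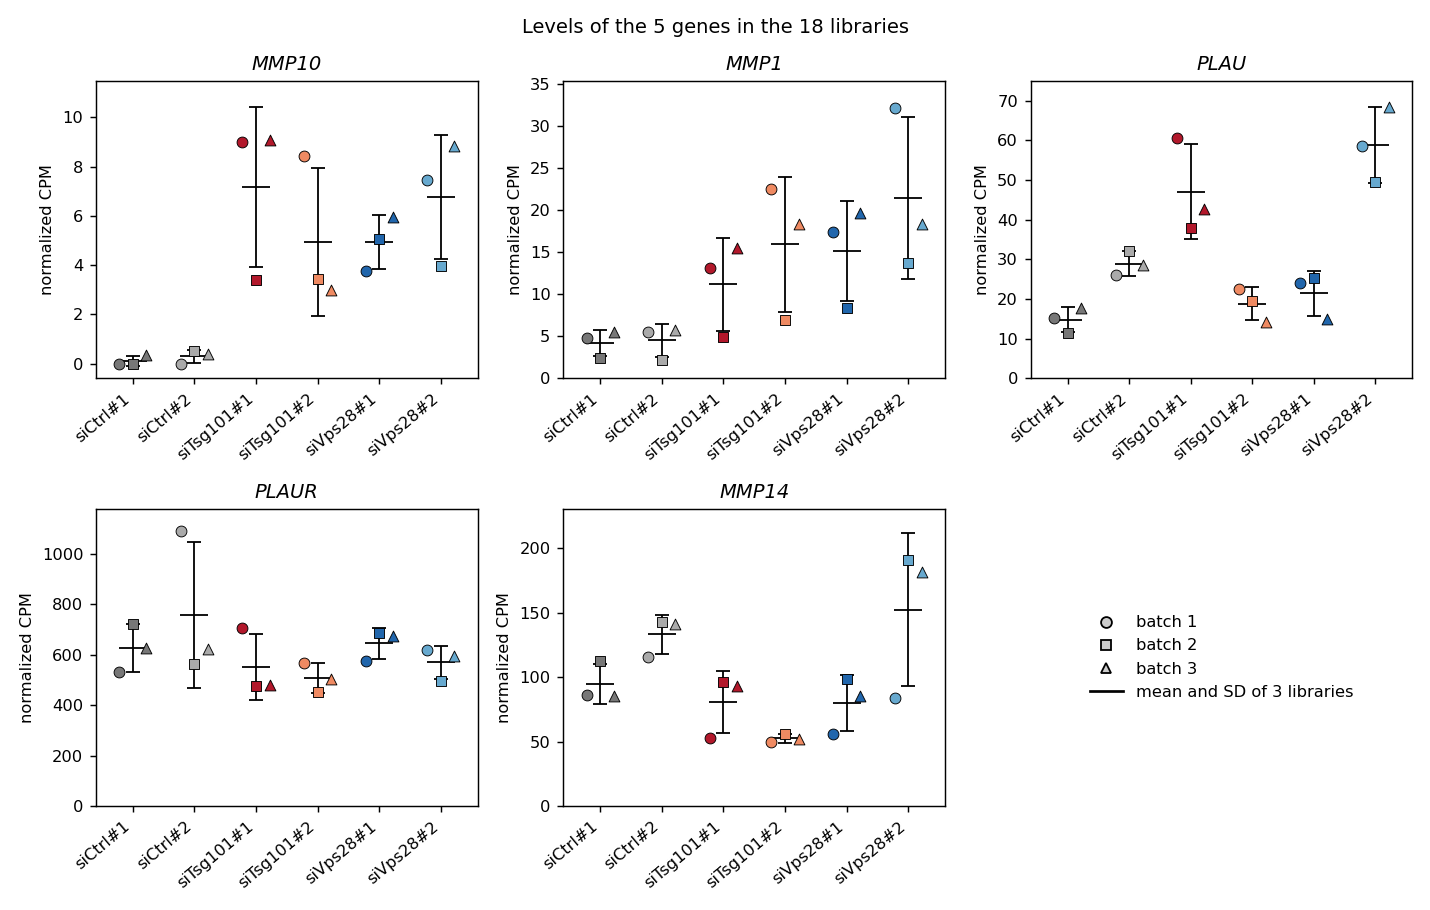
Normalized CPM (vertical axes, linear) of each gene by siRNA group; points are the 18 libraries, shaped by batch, and bars are the mean and SD of 3 libraries. *MMP10* and *MMP1* were higher with all 4 on-target siRNAs within each batch, *PLAU* was highest with siTsg101#1 and siVps28#2, *MMP14* with siVps28#2, and each group of *PLAUR* overlapped the next in the order of means.

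Across the 5 members, the mean log2 change against siCtrl#1 was thus above 1 for *MMP10*, *MMP1* and *PLAU* and between -0.15 and -0.14 for *MMP14* and *PLAUR*. In that contrast 8.56% of the 10213 tested genes were called higher and 6.54% lower, at 1.5-fold or more and an adjusted p under 0.05 in edgeR's quasi-likelihood test. The members were chosen with this contrast in view, so nothing is read from their number against these shares.

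**Figure D2:**
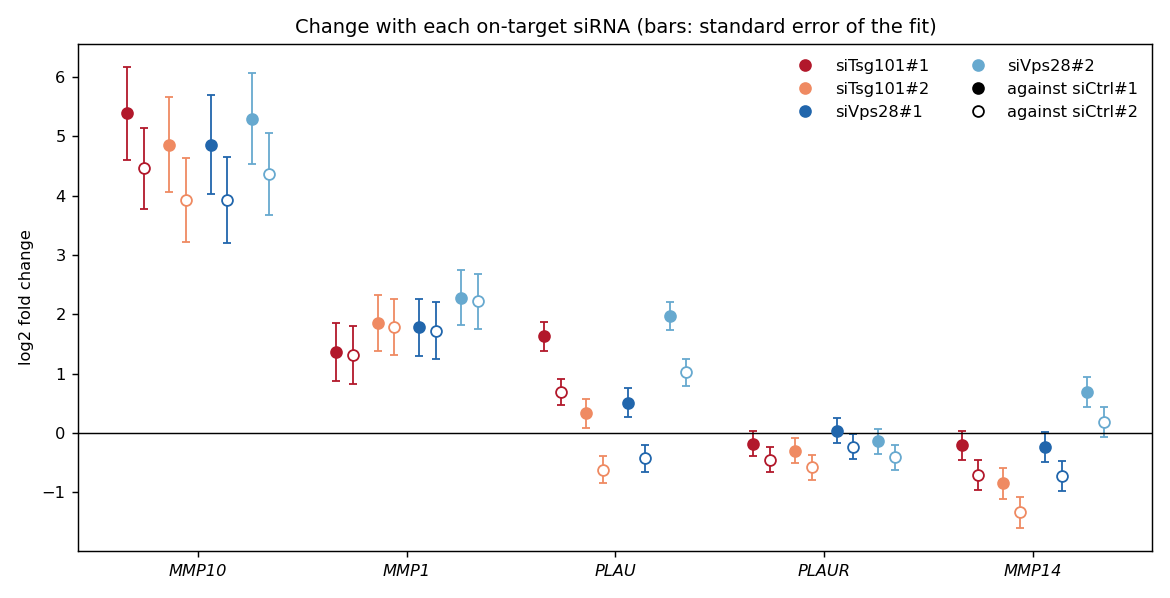
Fitted log2 fold change (vertical axis) of each gene with each of the 4 on-target siRNAs, against siCtrl#1 (filled) and siCtrl#2 (open); bars are the SE of the fit. The values of *MMP10* and *MMP1* stayed above 0 with either reference, while those of *PLAU* with siTsg101#2 and siVps28#1 lay above 0 against siCtrl#1 and below 0 against siCtrl#2.

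The mean of the siRNAs to Tsg101 was tested against that of the siRNAs to Vps28, which uses no nontargeting library. The members were chosen with earlier results of these data known, and the p-values do not allow for that choice. The spread in this test is that between libraries of the same siRNA, so a call does not tell the subunit from the siRNA sequence. *MMP14* was the 1 member called, being lower after Tsg101 than after Vps28 depletion by a log2 difference of -0.76 (SE 0.18, edgeR adjusted p = 0.00655), and 2.07% of all tested genes were called lower and 4.16% higher in this comparison. The siVps28#1 mean of 80.1 ± 21.7 CPM was close to the siTsg101#1 mean of 80.8 ± 24.3 CPM (SD, n = 3 each), so that the called difference came with siTsg101#2 at 52.6 ± 3.34 and siVps28#2 at 152 ± 59.4 CPM. *MMP10* differed by 0.05 (SE 0.30, edgeR adjusted p = 0.944), *PLAU* by -0.26 (SE 0.16, adjusted p = 0.326) and *PLAUR* by -0.19 (SE 0.15, adjusted p = 0.444). *MMP1* was lower after Tsg101 than after Vps28 depletion by -0.42 (SE 0.29, edgeR adjusted p = 0.406), and with the batch as a replicate block the difference was -0.46 with an adjusted p of 0.0485, below the 1.5-fold limit.

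The siRNAs to one subunit were then compared with each other, again with p-values that do not allow for the choice of the members. *PLAU* was higher with siTsg101#1 than with siTsg101#2 by 1.31 on the log2 scale (SE 0.23, edgeR adjusted p = 0.000739), in a comparison that called 6.98% of all tested genes in either direction. It was lower with siVps28#1 than with siVps28#2 by -1.46 (SE 0.23, edgeR adjusted p = 0.00438), in a comparison that called 0.48% of all tested genes. The 3 libraries of siTsg101#1 and the 3 of siVps28#2 lay above every library of the other siRNA to the same subunit.

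*MMP14* was the other member with a difference past 1.5-fold between siRNAs to one subunit. It was lower with siVps28#1 than with siVps28#2 by -0.92 (SE 0.25, edgeR adjusted p = 0.133), which was not called, and with the replicate block the difference of -0.90 was called (adjusted p = 0.0160). Between siTsg101#1 and siTsg101#2 it differed by 0.63 (SE 0.26, edgeR adjusted p = 0.138). With the replicate block this difference was 0.58 (edgeR adjusted p = 0.0437), below the 1.5-fold limit and not called. For *MMP10* these differences were 0.54 (SE 0.42, adjusted p = 0.497) between the siRNAs to Tsg101 and -0.44 (SE 0.43, adjusted p = 0.884) between those to Vps28, and for *MMP1* they were -0.48 (SE 0.42, adjusted p = 0.550) and -0.50 (SE 0.41, adjusted p = 0.843), all from edgeR. For *PLAUR* they were 0.12 and 0.18 (SE 0.21 each, edgeR adjusted p = 0.788 and 0.914). A difference of the size of these SE cannot be told from 0 here, and none of them shows that the siRNAs act alike.

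**Figure D3:**
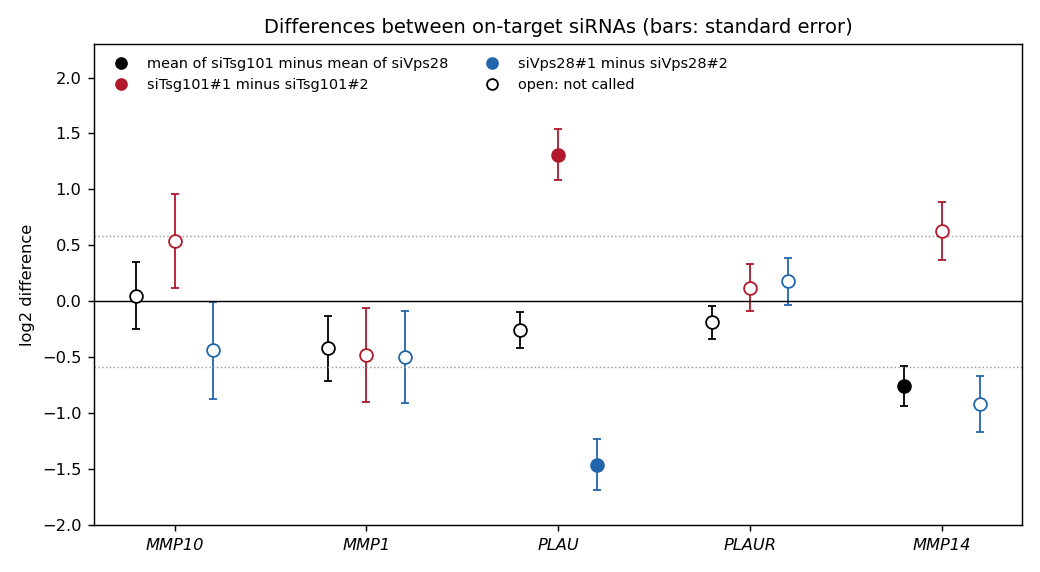
Log2 difference (vertical axis) between on-target siRNAs for each gene, with the SE of the fit; filled points were called and dotted lines mark 1.5-fold. *PLAU* differed between both siRNAs to each subunit, in opposite directions by number, at 1.31 and -1.46. For *MMP14* the mean of the siRNAs to Tsg101 lay below that of the siRNAs to Vps28, by a log2 difference of -0.76.

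*MMP10* and *MMP1* lie in a cluster of 9 metalloproteinase genes on chromosome 11, and their neighbor *MMP3*, encoding stromelysin-1, was higher in the on-target libraries too. *MMP3* had 1 count over the 3 libraries of siCtrl#1 and 0 with siCtrl#2, and 16, 28, 27 and 13 counts with siTsg101#1, siTsg101#2, siVps28#1 and siVps28#2. The 84 on-target counts gave a depth-scaled ratio of 18.2 to siCtrl#1 (exact 95% interval 3.19 to 729). With 3 counts over the group put in place of the 0 of siCtrl#2, the ratio was 5.93, with the on-target counts taken as exact. Neither value includes the spread between libraries. By the measured values each of 12 on-target libraries was above both nontargeting libraries of its batch. In batch 2, however, siTsg101#2 had 0.311 CPM (2 counts) and siCtrl#1 0.307 CPM (1 count), which cannot be told apart. A count of 0 also allows up to 3 counts, so on-target libraries with few counts are not shown to lie above it. With 85 counts in all, *MMP3* stayed under the minimum of 100 and was not among the tested genes. Of the transcript sequence of *MMP10* 3.36% of stretches of 50 bases also occur in *MMP3*, so reads of this pair may be split uncertainly if the amplicons lie there. The remaining 6 genes of the cluster, *MMP7*, *MMP20*, *MMP27*, *MMP8*, *MMP12* and *MMP13*, had at most 2 counts over all 18 libraries.

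**Figure D4:**
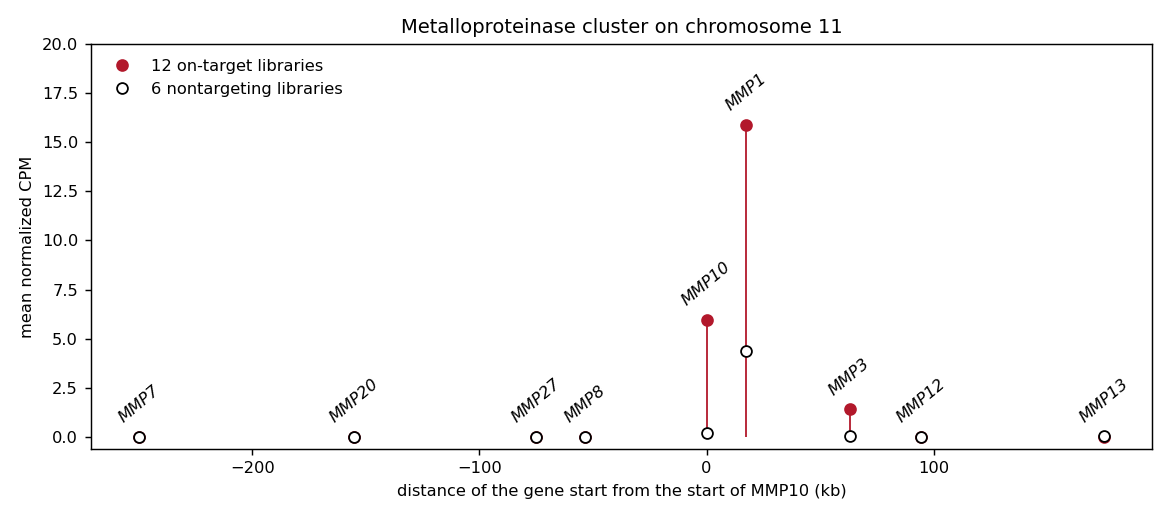
Mean normalized CPM (vertical axis) of the 9 genes of the cluster against the distance of their starts from that of *MMP10* in kb (horizontal axis, by genome coordinate), in the 12 on-target (filled) and 6 nontargeting libraries (open). The nontargeting and on-target means were 0.204 and 5.95 CPM for *MMP10*, 4.38 and 15.9 for *MMP1* and 0.0512 and 1.41 for *MMP3*, and the other 6 genes lay at 0.0413 CPM or less.

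The other genes of the system were taken from 7 lists of 112 genes written from general knowledge, but with earlier results of these data known. Of these genes 56 were measured well enough to test, and nothing is read from their number called against the shares of all tested genes. Averaged over the on-target siRNAs and set against siCtrl#1, 12 of these 56 were called higher and 3 lower, beside 8.56% and 6.54% of all tested genes, with a median log2 change of 0.25 beside 0.00 over all tested genes. Against siCtrl#2, 6 were called higher and 6 lower, beside 6.13% and 4.37% of all tested genes, with a median of 0.08 beside -0.01.

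In the list named partners of plasminogen activation 8 of 17 genes were tested and 2 were called higher than with siCtrl#1. *SERPINB8*, a serpin that can inhibit furin, rose by 1.22 (SE 0.17, edgeR adjusted p = 2.12e-05), from 12.4 ± 0.487 CPM with siCtrl#1 to 52.8 ± 9.03 with siTsg101#1 and 45.4 ± 3.89 with siTsg101#2 but 16.7 ± 4.05 and 16.8 ± 3.58 with the siRNAs to Vps28 (SD, n = 3 each). With siCtrl#2 *SERPINB8* measured 16.5 ± 0.968 CPM (SD, n = 3). It was higher after Tsg101 than after Vps28 depletion by 1.55 (SE 0.14, edgeR adjusted p = 4.43e-08). *LRP1*, an endocytic receptor of many ligands, rose by 0.65 (SE 0.17, edgeR adjusted p = 0.00643), with 0.14 against siCtrl#2. The other activator of plasminogen, *PLAT*, was not called against siCtrl#1, at -0.07 (SE 0.24, edgeR adjusted p = 0.861), and was higher after Tsg101 than after Vps28 depletion by 0.67 (SE 0.21, edgeR adjusted p = 0.0413).

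Of the 20 metalloproteinase genes beside the members, 9 had no count, 7 had 1 to 100 counts and 4 were tested. *MMP2*, the substrate of MT1-MMP, and *MMP7* had no count in any library, and *MMP9* had 6 counts in all. *MMP19* had 102 counts in all, and passed the minimum of 100 only through its on-target libraries. Its on-target libraries held 2 to 21 counts each, against 0 to 2 in those of siCtrl#1 and 1 to 3 in those of siCtrl#2, so that its call against siCtrl#1, 1 of the 12 above, is given without its size and supports nothing. *MMP25*, a membrane-anchored enzyme like MT1-MMP, rose by 0.78 (SE 0.20, edgeR adjusted p = 0.00706), from 7.0 ± 0.396 CPM with siCtrl#1 to 13.4 ± 0.555, 12.3 ± 2.39, 8.86 ± 2.39 and 14.4 ± 3.48 with siTsg101#1, siTsg101#2, siVps28#1 and siVps28#2 (SD, n = 3 each), and was also called against siCtrl#2, at 0.72.

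Of 11 inhibitors, inducers and activators of metalloproteinases 7 were tested, and *TIMP1* and *PCSK7* rose. *TIMP1*, a secreted inhibitor of most metalloproteinases, rose by 0.68 (SE 0.20, edgeR adjusted p = 0.0139) against siCtrl#1, but its difference from siCtrl#2 was 0.01. Against siCtrl#1 *TIMP1* was called with siTsg101#1 (1.16) and siVps28#1 (0.94), and not with siTsg101#2 (0.13) or siVps28#2 (0.5). *PCSK7*, a proprotein convertase, rose by 0.69 (SE 0.14, edgeR adjusted p = 0.000881) against siCtrl#1 and had -0.32 against siCtrl#2. *TIMP2*, which bridges MT1-MMP to pro-MMP2, was at 0.24 (SE 0.39, edgeR adjusted p = 0.699) against siCtrl#1 and was called lower, at -1.18, against siCtrl#2. *TIMP3* had no count.

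In the ADAM and ADAMTS list 6 of 14 genes were tested, and *ADAM17*, the sheddase that releases TNF and EGFR ligands, rose by 0.82 (SE 0.15, edgeR adjusted p = 0.000313). *ADAM9* was higher after Tsg101 than after Vps28 depletion by 0.59 (SE 0.11, edgeR adjusted p = 0.000436). Its mean was 235 ± 8.35 CPM with siTsg101#1 and 174 ± 5.80 with siTsg101#2 (SD, n = 3 each). With siVps28#1 it was 156 ± 28.7 CPM and with siVps28#2 116 ± 10.5 (SD, n = 3 each). Of 14 membrane partners of uPAR and MT1-MMP 10 were tested. *CD44*, the hyaluronan receptor that binds MT1-MMP, rose by 0.97 (SE 0.26, edgeR adjusted p = 0.00988) and the integrin subunit gene *ITGAV* by 0.71 (SE 0.16, edgeR adjusted p = 0.00267). By siRNA *CD44* was called higher with siTsg101#1 (1.32) and siVps28#2 (1.17), and not with siTsg101#2 (0.62) or siVps28#1 (0.76). The fibronectin receptor subunit gene *ITGA5* was lower after Tsg101 than after Vps28 depletion by -0.61 (SE 0.11, edgeR adjusted p = 0.000561). Its mean was 240 ± 20.5 CPM with siTsg101#1 but 391 ± 62.0 with siTsg101#2 (SD, n = 3 each). With siVps28#1 it was 470 ± 5.65 CPM and with siVps28#2 464 ± 89.6 (SD, n = 3 each). Of 19 genes of matrix and basement membrane proteins 7 were tested, and *TNC*, which encodes tenascin-C, rose by 1.15 (SE 0.20, edgeR adjusted p = 0.000205) against siCtrl#1 but had -0.16 against siCtrl#2. It was higher after Tsg101 than after Vps28 depletion by 0.68 (SE 0.16, edgeR adjusted p = 0.00576).

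Of 17 AP-1 and ETS factors, the families known to act on metalloproteinase and urokinase promoters, 14 were tested. Against siCtrl#1 2 were called higher and 3 lower, and against siCtrl#2 4 higher and 2 lower, so the balance depended on the reference. The shares of all tested genes were 8.56% and 6.54% against siCtrl#1 and 6.13% and 4.37% against siCtrl#2. *JUNB* rose by 0.98 (SE 0.17, edgeR adjusted p = 0.000207), from 107 ± 7.43 CPM with siCtrl#1 to 260 ± 53.2, 181 ± 35.4, 217 ± 5.84 and 191 ± 34.1 with siTsg101#1, siTsg101#2, siVps28#1 and siVps28#2 (SD, n = 3 each), and was called against siCtrl#2 too, at 0.72. *FOSL2* rose by 0.99 (SE 0.22, edgeR adjusted p = 0.00216). *FOSB* fell by 0.63 (SE 0.13, edgeR adjusted p = 0.00130), *ETV4* fell by 0.61 (SE 0.17, edgeR adjusted p = 0.00965) and *ETV1* fell by 1.18 (SE 0.30, edgeR adjusted p = 0.00552), of which *ETV1* was called lower against siCtrl#2 as well, at -1.52. With siCtrl#2 in place of siCtrl#1 the changes of *ADAM17* (0.54), *CD44* (0.60), *ITGAV* (0.51), *FOSL2* (0.58), *FOSB* (-0.44) and *ETV4* (-0.52) kept their sign and were not called. Of the 15 list genes called against siCtrl#1, *SERPINB8* (0.79), *MMP25*, *JUNB* and *ETV1* were called in the same direction against siCtrl#2. By siRNA, *ETV1* was called lower than with siCtrl#1 for siTsg101#1 and siVps28#2, at -1.76 each. With siTsg101#2, at -0.75, and siVps28#1, at -0.44, it was not called. *FOSB* was called lower than with siCtrl#1 for both siRNAs to Tsg101 (-0.61 and -1.06), and not for those to Vps28 (-0.35 and -0.48). *ETV4* was called lower for siTsg101#2 (-0.68) and siVps28#2 (-0.74), and not for siTsg101#1 (-0.48) or siVps28#1 (-0.55). The genes *LRP1*, *PCSK7*, *ADAM17* and *FOSL2* were above siCtrl#1 with all 4 on-target siRNAs but not called with every one.

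**Figure D5:**
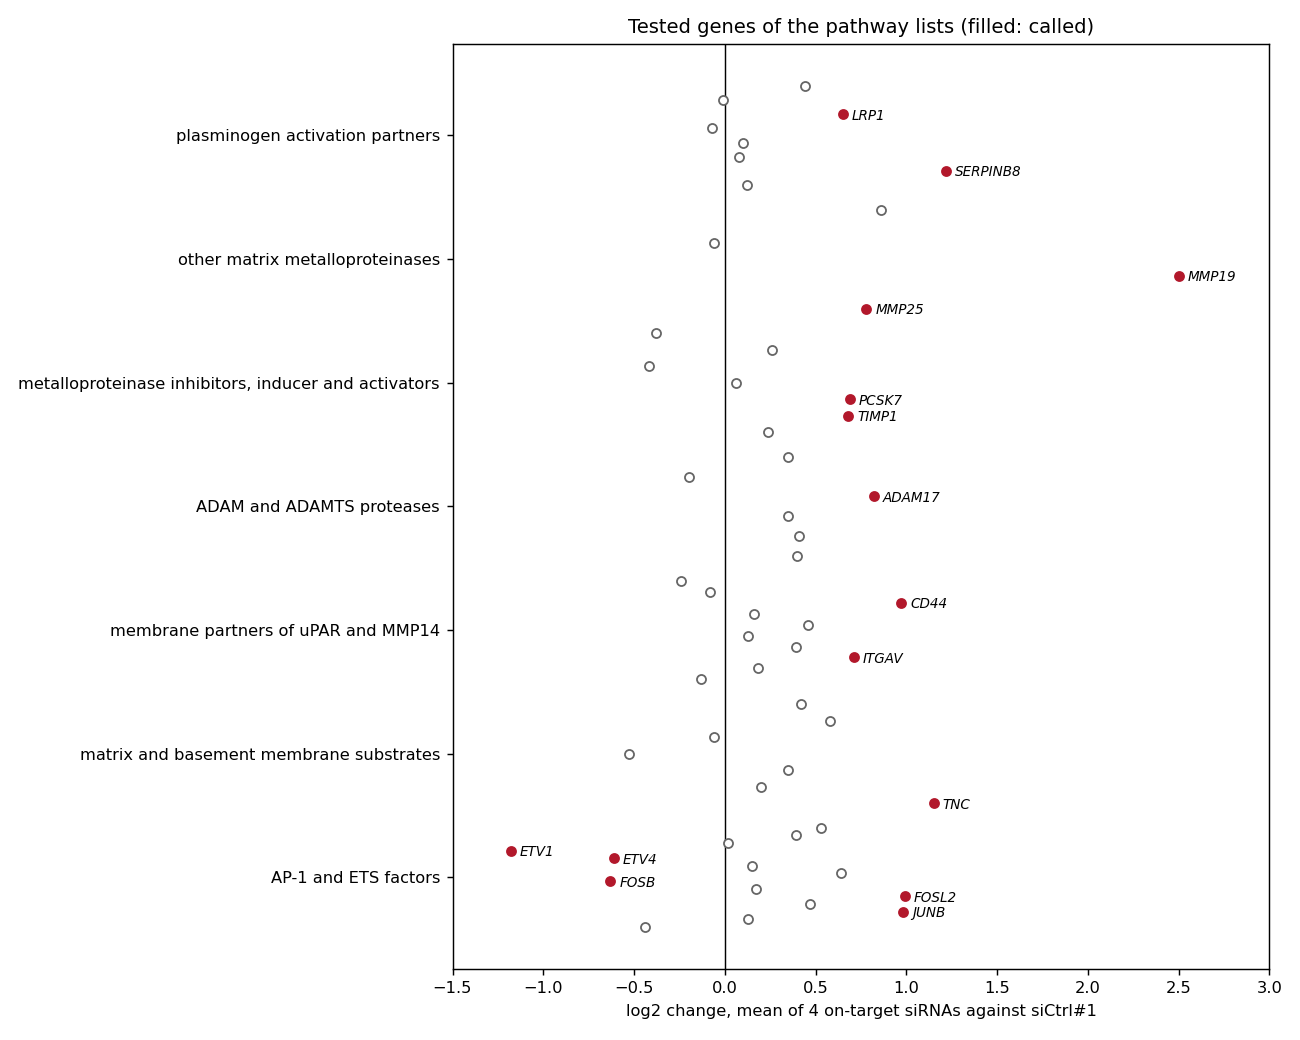
Log2 change of the 56 tested list genes (points, by list) averaged over the 4 on-target siRNAs, relative to siCtrl#1 (horizontal axis); filled points were called and are named. The filled points comprise 12 genes above 0, among them *MMP19*, which passed the count minimum only through its on-target libraries, and 3 below 0, all AP-1 or ETS factors.

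The genes whose levels tracked each member most closely were found from Pearson's r of log2(CPM + 1) over the 18 libraries, which share batches and siRNAs and are described without a test. *MMP10* was closest to *CXCL8* (r = 0.951), *CXCL3* (r = 0.941) and *NINJ1* (r = 0.939), the first pair encoding chemokines that attract neutrophils, and *CXCL8* ranged from 0.615 to 236 CPM. *MMP1* was closest to *NEU1*, a lysosomal sialidase gene (r = 0.915), *EIF2B2* (r = 0.906) and *PTPRK* (r = 0.897). For *PLAU* the closest were *TCP11L1* (r = 0.914), *TSPYL1* (r = 0.907) and *MBOAT2* (r = 0.839), for *MMP14* *EIF2AK1* (r = 0.807), *FUBP3* (r = 0.805) and *RAB11FIP1* (r = 0.801), and for *PLAUR* *TXN2* (r = 0.879), *CARM1* (r = 0.856) and *PSMA7* (r = 0.841). Between members, r was 0.818 for *MMP10* with *MMP1* and 0.550 for *MMP10* with *PLAU*, and the other pairs lay between -0.334 and 0.365.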

How the data were processed

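RNA of 18 RKO libraries was amplified with the Ion AmpliSeq Transcriptome panel. The authors sequenced it on an Ion Proton instrument, used the Torrent Mapping Alignment Program for alignment to the panel reference on hg19, and counted reads by HTSeq 0.6.0 (per the submitters' processing notes, which also name DESeq2 1.18.1). The values they deposited are raw counts per transcript, not normalized. Reads with no feature made up 48.23 to 49.07% of each list and were left out. Groups and batches came from the labels, in which the replicate number is the batch. The study describes the replicates as independent experiments, and p-values measure the spread between these libraries.

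Genes with more than 100 counts over all libraries were kept and 419 noncoding ones were left out, leaving 10213, as in the study's methods. Of the 5 members all passed, *MMP10* through its on-target libraries. Counts were fitted with edgeR 4.0.16 under R 4.3.3 (TMM, 6 groups in 1 model, quasi-likelihood test, Benjamini-Hochberg adjustment), and the SE is the log2 change divided by the square root of F. The procedure was run on simulated counts drawn independently for each library, which leaves out the shared deviations within batches given below. Intervals of count ratios are exact conditional 95% intervals (scipy 1.17.1). DESeq2 1.42.0, RLE size factors, other filters and references, the batch as a replicate block, and leaving out each library were alternatives. Deviations from group means correlated by 0.149 on average between libraries of the same batch and by -0.0751 between others. That the numbers pair the libraries comes from the labels.

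The members and lists were chosen with earlier results of these data known. Named in the text are *TSG101*, *VPS28*, the members, list genes called against siCtrl#1 or between subunits, the chromosome 11 cluster, 9 further metalloproteinase, inhibitor and activator genes whatever their values (1 of them is not reported here), and the 3 genes most correlated with each member. *CDH1* and the other marker genes come from marker lists. 1 listed gene, *ITGA3*, was not matched.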

Additional observations from a re-analysis of the deposited data

Results flagged for a closer look

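Differences between the on-target siRNAs that passed edgeR's test are listed here because the same depletion gave unequal levels by subunit or by siRNA. *PLAU* differed between siTsg101#1 and siTsg101#2 by 1.31 and between siVps28#1 and siVps28#2 by -1.46 on the log2 scale, in 3 libraries against 3 without overlap each time. *MMP14* differed by -0.76 between Tsg101 and Vps28 depletion. Between the same depletions *SERPINB8* differed by 1.55, *TNC* by 0.68, *PLAT* by 0.67, *ADAM9* by 0.59 and *ITGA5* by -0.61. Which of these come from the subunit and which from the sequence of an siRNA was not tested.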

How the results depend on the processing

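The 27 results were recomputed under 676 alternatives, of which 639 kept the direction and the side of the threshold or, for values without a test and counts, stayed within the replicate spread or 1.5 times. The mean change of *MMP1* stayed between 1.59 and 2.05, that of *MMP10* between 4.17 and 7.85 and that of *PLAU* between 0.16 and 1.27. With siCtrl#2 as the reference the mean log2 change was 4.17 for *MMP10*, -0.65 for *MMP14* and 0.16 for *PLAU*, and with the mean of both nontargeting siRNAs 0.64 for *PLAU*. Leaving out 1 library gave 4.6 to 7.85 for *MMP10*, the highest without siCtrl#1 replicate 3, the 1 siCtrl#1 library with reads of the gene. The *MMP10* difference between subunits ran from -0.27 to 0.21 and that of *PLAUR* between the siRNAs to Tsg101 from -0.08 to 0.22, in neither case called. Members called between siTsg101#1 and siTsg101#2 were 2, with *MMP14*, without the count minimum or in a fit of those groups alone. Between siVps28#1 and siVps28#2 they were 2 with DESeq2, without the minimum and with the replicate block, and 1 to 2 when 1 library was left out, *MMP14* being called without siVps28#2 replicate 1. The block changed no other call of a member. Pathway genes called higher against siCtrl#1 were 6 with siCtrl#2 as the reference and 9 to 13 with 1 library left out. Those called lower were 6 with siCtrl#2, 1 with the mean of both, 5 on the adjusted p alone, and 1 to 3 with 1 library left out, the lowest without siCtrl#1 replicate 3. Pathway genes higher after Tsg101 depletion were 2 in the fit of the compared groups and 8 on the adjusted p alone, and 3 to 4 with 1 library left out. Those lower were 4 on the adjusted p alone and 0 to 2 with 1 library left out, 0 without siTsg101#1 replicate 2 or siVps28#2 replicate 1 and 2 without siTsg101#1 replicate 3, siVps28#1 replicate 3 or siVps28#2 replicate 3. The cause of these shifts was not tested. A minimum of 10 counts in every library removed *MMP10* and *MMP1* and gave no value for them. With 2 and 4 counts in the nontargeting groups, the size of the *MMP10* change is limited by depth.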
